A study of Mus musculus with 13 samples.

Results

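The genes described here are 10 transporters of amino acids, or their subunits, at the plasma membrane, measured in mouse embryonic stem (ES) cells treated with PhenDC3, a ligand that binds G-quadruplexes (G4), the stacked structures that guanine-rich DNA can adopt. The members, 10 of the 24079 genes in the table of raw RNA-seq counts, were chosen by symbol: Slc7a7, picked because it fell strongly in these samples, and 9 other transporters or transporter subunits, namely Slc7a1, Slc7a3, Slc7a5, Slc7a6, Slc7a8, Slc7a11, Slc3a2, Slc38a2 and Slc1a5. The level of Slc7a7 in the RNA-seq libraries is therefore given as a description, with no test, while the other members carry the test made across all genes. CGR8 cells, a feeder-free mouse ES cell line kept on gelatin in serum with LIF, were grown for 48 h in 0.5% DMSO (control) or with 10 μM PhenDC3 in the same solvent, and the labels name no genetic change in either group. RNA-seq covered 3 libraries of each condition. Sequencing of short nascent strands (SNS-seq), small DNA pieces that still carry an RNA primer and so lie close to a replication origin, gave peak lists for 3 control and 2 PhenDC3 samples.

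Amino acids that cells cannot make, and arginine in growing cells, enter through families of membrane carriers. Several members of the Slc7 family are light chains that reach the cell surface only when bound to the heavy chain Slc3a2 (also known as CD98), whereas the cationic carriers Slc7a1 and Slc7a3 work alone. Slc7a5 and Slc7a8 carry large neutral amino acids, Slc7a6 and Slc7a7 exchange cationic for neutral amino acids with sodium, and Slc7a11 exchanges cystine for glutamate. Slc1a5 and Slc38a2 carry neutral amino acids such as glutamine, and leucine that enters through Slc7a5 is a known signal to the mTORC1 kinase.

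The sequence around the starts of Slc7a7 is shown first, because the treatment is a G4 ligand and Slc7a7 is the member with the lowest level under treatment relative to control. Slc7a7 lies on the minus strand of chromosome 14 (chr14:54369442-54420068, GRCm38.p6) and has 5 curated transcription starts in RefSeq. A G4 motif, here at least 4 runs of at least 3 G separated by loops of 1 to 7 bases and searched on both strands, was found ahead of 2 of the 5 starts. It is a single motif of 21 bases at chr14:54417702-54417722, on the transcribed gene's own sense strand, which begins 20 bases before the start at position 54417702 and 43 bases before the start at position 54417679. The first sequence below runs up to the last base of that motif, with the motif in capitals (chr14:54417702-54417900, minus strand). The second runs across the most upstream curated start, at position 54417944, with the letters TGATGNAA, the core of the amino acid response element, in capitals (chr14:54417930-54418094, minus strand).

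Slc7a7 promoter: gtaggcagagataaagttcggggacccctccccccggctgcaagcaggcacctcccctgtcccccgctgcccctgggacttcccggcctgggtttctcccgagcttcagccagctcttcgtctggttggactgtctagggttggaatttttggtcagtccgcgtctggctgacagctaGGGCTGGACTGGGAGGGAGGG
Slc7a7 upstream start: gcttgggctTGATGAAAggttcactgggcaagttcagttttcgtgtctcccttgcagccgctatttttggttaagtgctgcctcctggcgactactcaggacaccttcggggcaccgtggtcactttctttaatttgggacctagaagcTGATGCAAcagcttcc

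The table of RefSeq promoter windows used here (250 bases before to 50 bases after a start, GRCm38.p6) matched 7 of the 10 members, with 13 windows between them, and held no entry for Slc7a3, Slc7a5 and Slc1a5. Across the 32851 windows of the whole table, 18.6% held a G4 motif. Of the members' windows, 4 held one, and these belonged to Slc7a7, Slc7a8 and Slc38a2. Slc38a2 had 2 such motifs, both on the sense strand, and its 250 bases before the start (chr15:96699729-96699978, minus strand) are shown with the motifs in capitals. The letters TGATGNAA, searched on both strands, were in 3.97% of all windows and in 3 windows of the members, which belonged to Slc7a7 and Slc7a11. Slc7a11 held the letters in both orientations within its 250 bases before the start (chr3:50443614-50443863, minus strand). No overlap between the TGATGNAA letters and a G4 motif was seen in the printed sequences.

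Slc38a2 promoter: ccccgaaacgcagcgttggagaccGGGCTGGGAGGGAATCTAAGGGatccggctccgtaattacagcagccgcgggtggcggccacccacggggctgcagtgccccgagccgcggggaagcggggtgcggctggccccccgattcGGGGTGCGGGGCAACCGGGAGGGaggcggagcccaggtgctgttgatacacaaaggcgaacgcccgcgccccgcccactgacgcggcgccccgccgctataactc
Slc7a11 promoter: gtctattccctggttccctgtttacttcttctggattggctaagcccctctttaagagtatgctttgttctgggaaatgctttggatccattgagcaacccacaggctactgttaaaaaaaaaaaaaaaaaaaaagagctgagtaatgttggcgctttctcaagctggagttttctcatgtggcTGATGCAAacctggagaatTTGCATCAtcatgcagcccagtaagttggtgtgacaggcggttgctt

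The RNA-seq libraries held between 22232014 and 29486502 counts. The 8 ES cell markers looked for were all expressed in both conditions, with a summed level of 7134 to 8090 CPM (normalized counts scaled to a common library size) in controls and 8207 to 9600 with PhenDC3. Among them Nanog, Klf4 and Dppa5a were higher and Pou5f1 and Tdgf1 lower with PhenDC3. Of 10 endoderm markers, 7 had enough counts to be tested and 4 (Foxa2, Gata4, Gata6 and Sox17) were higher. Amn, Cubn and Dab2 did not pass at an adjusted p of at most 0.05, with log2 fold changes of −1.54, −0.21 and 0.21. The 10 markers summed to 64.0 to 175 CPM in controls and 97.2 to 210 CPM with PhenDC3, most of it Cubn and Dab2. Markers of macrophages, a cell type known for Slc7a7 expression, and of blood cells summed to 14.6 to 18.6 CPM in controls. With PhenDC3 they summed to 18.1 to 20.3 CPM, and most of the sum in both conditions was Cd68. The others found in the count table, Csf1r, Lyz2, Tyrobp and Ptprc among them, were at 0.555 CPM or less in every library. Fibroblast markers summed to at most 8.68 CPM in any library, and the markers of other lineages to between 47.5 and 60.6 CPM in controls and 84.6 and 109 CPM with PhenDC3. Of the markers of other lineages that could be tested, Krt18 and Nes were higher, Pax6 was lower and 4 did not pass. The part of these markers in the members' changes was not tested. The share of counts on Rn45s, the precursor of ribosomal RNA, lay between 2.55% and 5.70% in controls and between 0.172% and 1.43% with PhenDC3, and that of Lars2 also moved with the condition. Leaving both genes out moved the log2 fold change of no tested member by as much as its standard error. This takes away only the counts of these genes. What made their shares differ, and its part in the members' changes, was not tested.

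Slc7a7, the light chain that lets lysine and arginine leave cells in exchange for neutral amino acids, was abundant in control cells and low after PhenDC3. Its level was 118, 112 and 96.5 CPM in control replicates 1, 2 and 3, and 5.72, 4.22 and 8.75 CPM in PhenDC3 replicates 1, 2 and 3. The counts behind these levels were 3267, 2450 and 2233 in controls and 165, 101 and 241 with PhenDC3. The lowest control library stood far above the highest PhenDC3 library, and the spread within each condition was small beside the gap. The log2 fold change was −4.12 ± 0.24 (SE), a level 17.4-fold lower with PhenDC3, which placed it at rank 7 from the lowest among the 13972 genes tested. Since the gene was picked by this contrast, the value describes the choice and is no evidence of its own. In bulk RNA, fewer cells that express a gene and less of its RNA per cell cannot be told apart. The last 228 bases of Slc7a7 are shared with the end of Oxa1l on the opposite strand, and the strand setting of the counting was not given in the sources used here. Oxa1l itself had a log2 fold change of −0.12 (adjusted p = 0.375, edgeR's quasi-likelihood test).

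Of the other 9 members, 8 had enough counts for the test. With PhenDC3, 5 of them fell (Slc7a3, Slc7a5, Slc3a2, Slc1a5 and Slc38a2), 1 rose (Slc7a6) and 2 did not pass (Slc7a1 and Slc7a8), at an adjusted p of at most 0.05 over all genes. The same test passed 36.8% of all 13972 genes, 18.7% as lower and 18% as higher, so that a change in either direction was common in these libraries. The median log2 fold change of the 8 members was −0.727, against 0.00964 for all genes tested. The members were chosen with earlier results of these data known, so this difference is a description only. The 3 libraries of a condition are separate samples by their labels, which do not say whether they were separate cultures. The p-values set the difference between conditions against the variation among these libraries, estimated with help from all genes tested.

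**Figure D1:**
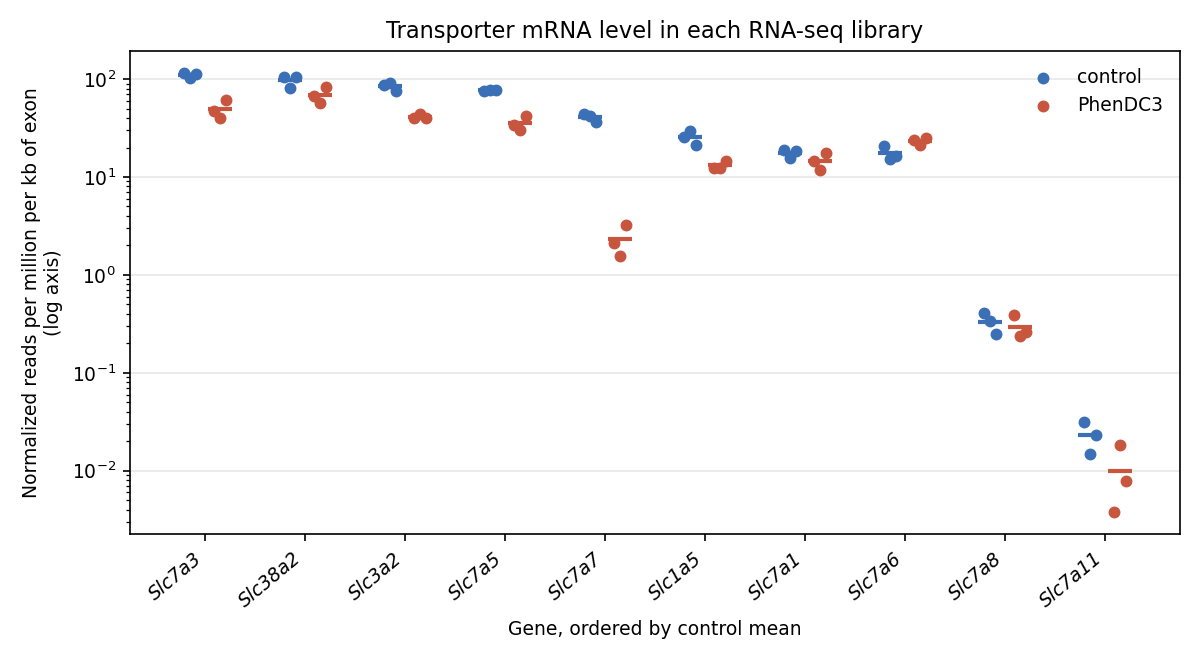
Level of each transporter mRNA in the 6 RNA-seq libraries, as RPKM (normalized CPM per kilobase of exon, log axis), for genes ordered by the control mean. Points are libraries and bars are means of 3. Slc7a7 went from 40.7 in controls to 2.33 with PhenDC3, while Slc7a6 is the member whose points stand higher with PhenDC3.

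Slc3a2, the heavy chain, fell with PhenDC3. Its level was 257, 269 and 226 CPM in control replicates 1, 2 and 3, and 118, 129 and 119 CPM in PhenDC3 replicates 1, 2 and 3. The groups did not overlap, as was true in this direction for 25.6% of all genes tested. The log2 fold change was −1.04 ± 0.11 (SE, adjusted p = 0.000261, edgeR). Slc3a2 lies at chr19:8706882-8723369 on the minus strand.

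Slc7a5, the light chain for leucine and other large neutral amino acids (chr8:121881146-121907686, minus strand), moved by a similar amount. It was at 265, 270 and 274 CPM in controls, 3 values within a narrow range, and at 120, 107 and 149 CPM with PhenDC3. Its log2 fold change was −1.11 ± 0.14 (SE, adjusted p = 0.000491, edgeR), and the groups did not overlap. Slc7a6, the other light chain that exchanges cationic for neutral amino acids (chr8:106168219-106198714, plus strand), moved the opposite way. It was at 82.1, 60.2 and 64.8 CPM in controls and at 94.0, 84.3 and 98.9 CPM with PhenDC3, with a log2 fold change of 0.42 ± 0.14 (SE, adjusted p = 0.0408, edgeR). The highest control and the lowest PhenDC3 library were close but did not overlap, which in this direction held for 25% of all genes. The call for Slc7a6 was lost when any of control replicates 2 and 3 or PhenDC3 replicates 1 and 3 was left out, with an adjusted p between 0.0818 and 0.126.

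Slc7a8, the second light chain for large neutral amino acids, had a low level. Its level was 1.63, 1.37 and 0.994 CPM in controls and 1.56, 0.962 and 1.05 CPM with PhenDC3, with overlapping groups and a log2 fold change of −0.16 ± 0.32 (SE, adjusted p = 0.725, edgeR). Slc7a11, the cystine carrier, had 8, 3 and 5 counts in controls and 1, 4 and 2 counts with PhenDC3. These counts were too few to be tested, and no difference was detectable at this depth.

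Per kilobase of exon, the light chains that pair with Slc3a2 could be set beside it in each library. The sum of Slc7a5, Slc7a6, Slc7a7, Slc7a8 and Slc7a11 was 141, 134 and 131 RPKM (CPM per kilobase of exon) in control replicates 1, 2 and 3, and 60.4, 53.5 and 70.9 RPKM in PhenDC3 replicates 1, 2 and 3. Divided by the RPKM of Slc3a2, this sum came to 1.62, 1.47 and 1.71 in controls and 1.51, 1.23 and 1.76 with PhenDC3, so that the ratio of light to heavy chain mRNA overlapped between the conditions. The make-up of the sum differed. Slc7a7 was 31.4%, 31.1% and 27.6% of it in controls and 3.54%, 2.95% and 4.61% with PhenDC3. Slc7a6 went from 14.8%, 11.4% and 12.6% to 39.5%, 39.9% and 35.4%, while Slc7a5 stayed between 53.5% and 59.7% in all 6 libraries. Slc7a7 and Slc7a6, the pair with the same exchange activity, stood in a ratio of 2.12, 2.73 and 2.19 in controls and 0.0898, 0.0738 and 0.130 with PhenDC3. Since Slc7a7 entered by its fall, these shares are given with no test.

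**Figure D2:**
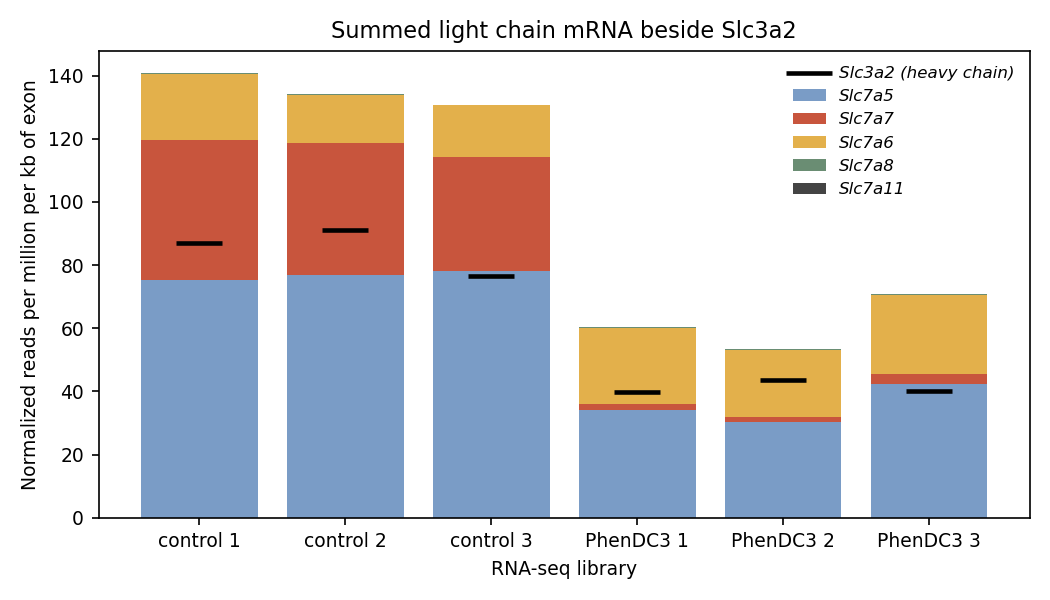
Stacked level of the 5 light chain mRNAs in each RNA-seq library, in RPKM, with Slc3a2 as a black mark. The stack is between 131 and 141 high in controls and between 53.5 and 70.9 with PhenDC3, and the Slc7a7 segment shrinks to a thin band with PhenDC3.

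Slc7a3, a cationic amino acid carrier that needs no heavy chain (chrX:101079146-101090452, minus strand), had the largest fall among the tested members. Its level was 280, 247 and 273 CPM in controls and 114, 95.9 and 149 CPM with PhenDC3. The log2 fold change was −1.16 ± 0.16 (SE, adjusted p = 0.000928, edgeR), with no overlap between the groups. Slc7a1, the widely expressed carrier of the same kind (chr5:148327410-148399904, minus strand), was at 136, 114 and 134 CPM in controls and at 106, 84.6 and 127 CPM with PhenDC3. These groups overlapped, and the log2 fold change of −0.27 ± 0.16 (SE, adjusted p = 0.195, edgeR) did not pass. No test was made of whether the 2 cationic carriers differed from each other in their response.

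Slc1a5, a sodium-dependent carrier of glutamine and other small neutral amino acids (chr7:16781334-16798274, plus strand), was at 71.1, 81.4 and 58.5 CPM in controls and at 34.2, 34.5 and 40.2 CPM with PhenDC3. The groups did not overlap, and the log2 fold change was −0.95 ± 0.14 (SE, adjusted p = 0.00125, edgeR). Slc38a2, a sodium-coupled carrier of small neutral amino acids known to respond to amino acid shortage (chr15:96687392-96699728, minus strand), had a smaller change. It was at 490, 374 and 490 CPM in controls and at 312, 263 and 383 CPM with PhenDC3, with the lowest control below the highest PhenDC3 library. Its log2 fold change of −0.50 ± 0.17 (SE, adjusted p = 0.0425, edgeR) no longer passed without control replicate 1, control replicate 3, PhenDC3 replicate 1 or PhenDC3 replicate 2, with an adjusted p between 0.0834 and 0.133.

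The order of the members by mRNA per kilobase of exon differed between the conditions. In controls, Slc7a3 came first with 110 ± 7.27 RPKM (SD, n = 3), followed by Slc38a2 with 96.9 ± 14.4, Slc3a2 with 84.8 ± 7.57 and Slc7a5 with 76.8 ± 1.34 RPKM. Each of these overlapped the next in the order. Slc7a7 with 40.7 ± 4.16 RPKM and Slc1a5 with 25.5 ± 4.16 RPKM stood apart from their neighbours, and Slc7a1 and Slc7a6 overlapped at 17.7 ± 1.70 and 17.5 ± 2.93 RPKM. With PhenDC3, Slc38a2 came first with a mean of 68.6 RPKM (range 56.45 to 82.25), ahead of Slc7a3 with 49.5 ± 11.3, Slc3a2 with 41.2 ± 2.06 and Slc7a5 with 35.6 ± 6.14 RPKM, and neighbours among these again overlapped. Slc7a6 followed with 23.4 ± 1.88 RPKM and no overlap with Slc7a1 at 14.6 ± 2.91, which overlapped Slc1a5 at 13.2 ± 1.22 RPKM. Slc7a7 was then below all of these with 2.33 ± 0.862 RPKM, and above only Slc7a8 and Slc7a11. The exon length counts every exon of the curated transcripts, so that a gene read mainly as a shorter transcript has its RPKM understated.

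Among the PhenDC3 libraries, replicate 3 had the highest level of Slc7a7, Slc7a3, Slc7a5, Slc7a1, Slc1a5, Slc38a2 and Slc7a6, and replicate 2 the lowest of the same genes except Slc1a5, for which replicate 1 was lowest. Slc3a2 was highest in replicate 2. Replicate 3 was also the PhenDC3 library with the largest share of counts on Rn45s, at 1.43%. Its part in these levels was not tested.

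Across the 6 libraries, the genes with a profile most like that of Slc7a7 (Pearson correlation of log2 CPM, 12479 genes with a mean of at least 1 CPM) were Spred1, Pcolce, Stmn3, Fkbp10 and Slc28a1. Their correlations lay between 0.9986 and 0.9992, over points that form 1 cluster for each condition, so that the value mostly reflects the gap between the clusters. Each changed less than Slc7a7. Spred1, an inhibitor of the Ras pathway, went from 88.0 CPM in controls to 29.3 CPM with PhenDC3. Slc28a1, a nucleoside carrier, went from 46.9 to 27.3 CPM.

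The lists of related genes were read in the same fit, in which 36.8% of all genes passed. The share that passed was 40.9% of other plasma membrane transporters, 42.9% of organellar transporters, 52.6% of arginine and polyamine enzymes, 15.6% of amino acid sensing genes, 75% of glutathione genes and 50% of amino acid response genes. These shares moved with single libraries, and those of all genes did too. Without PhenDC3 replicate 1, 23.5% of all genes passed, and the count fell from 9 to 5 for organellar transporters and from 12 to 7 for glutathione genes. Of 38 other amino acid transporters of the plasma membrane, 22 could be tested, of which 4 were higher, 5 lower and 13 did not pass, with a median log2 fold change of −0.0457. Slc1a3 and Slc1a1, both glutamate carriers, moved in opposite directions. Slc1a3 went from 27.8, 30.4 and 27.1 CPM to 5.83, 6.73 and 8.10 CPM, a log2 fold change of −2.04 (adjusted p = 6.86e-05, edgeR), and Slc1a1 from 5.17 ± 0.718 CPM to 20.9 ± 1.46 CPM (SD, n = 3), a log2 fold change of 2.02 (adjusted p = 7.43e-05, edgeR). Slc1a4, which carries serine and other small neutral amino acids, fell by 1.53 on the log2 scale (adjusted p = 0.00157, edgeR). Slc7a2, the third cationic carrier of the Slc7 family, was low and rose from 1.33 to 3.60 CPM (adjusted p = 0.00716, edgeR). The 2 most abundant that did not pass were Slc6a6, the taurine carrier, with a log2 fold change of 0.16, and Slc38a4, with −0.22.

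Of the transporters of lysosomes, mitochondria and synaptic vesicles, 21 of 25 could be tested, with 4 higher, 5 lower and a median of −0.0203. Slc36a1 and Slc36a4, carriers of the Slc36 family, were higher by 0.90 and 1.00 on the log2 scale (adjusted p = 0.00217 and 0.0465, edgeR). Slc25a12, a mitochondrial aspartate-glutamate carrier, fell by 1.13 (adjusted p = 0.000915), while its relative Slc25a13 had −0.17 and did not pass. Slc17a7, a vesicular glutamate carrier with a low level (2.91 CPM in controls and 1.18 CPM with PhenDC3), fell by 1.30 (adjusted p = 0.0114, edgeR).

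Of the enzymes that use arginine and ornithine or make polyamines, 19 of 24 could be tested, with 3 higher, 7 lower and a median of −0.271. Odc1, which makes putrescine from ornithine, went from 1017 ± 43.6 CPM to 566 ± 54.1 CPM (SD, n = 3), a log2 fold change of −0.85 (adjusted p = 0.000716, edgeR). Srm, the spermidine synthase, fell by 0.99 (adjusted p = 0.000606) and Nos3, a nitric oxide synthase, by 2.65 on the log2 scale (adjusted p = 2e-04). Smox, which oxidizes spermine, was higher by 0.98 (adjusted p = 0.00129, edgeR). Azin1 and Oaz2, regulators of Odc1, had log2 fold changes of 0.11 and −0.042 and did not pass.

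Of the genes that sense amino acids ahead of mTORC1, all 32 in the table could be tested, and 2 were higher, 3 lower and 27 did not pass. The median was −0.112. Lars, the leucyl-tRNA synthetase, fell by 0.56 (adjusted p = 0.00929, edgeR), Lamtor3, a scaffold at the lysosome, by 0.83 (adjusted p = 0.000639), and Gatsl3, the older symbol of an arginine sensor, by 0.98 on the log2 scale (adjusted p = 0.00172). Fnip1, a partner of folliculin, was higher by 0.72 (adjusted p = 0.0103, edgeR). Seh1l and Sec13, shared by the nuclear pore, had −0.19 and −0.090 and did not pass. The count passing in this list rose to 10 when control replicate 3 was left out, where 38% of all genes passed.

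Of the genes of glutathione synthesis and use, 16 of 18 could be tested, with 6 higher and 6 lower, and a median of −0.016. Ggt7 was higher by 2.73 and Ggt1, the transferase that splits extracellular glutathione, fell by 2.46 on the log2 scale (adjusted p = 0.000653 and 0.00119, edgeR). Anpep, an aminopeptidase of the cell surface, fell by 1.25 (adjusted p = 0.000371). Gpx4 and Gsr had −0.018 and −0.079 and did not pass.

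Of 22 genes known to rise when amino acids are short, 4 were higher, 7 lower and 11 did not pass, with a median of −0.337. The higher ones included Atf3, a stress-induced transcription factor, which rose from 2.36 to 9.46 CPM (log2 fold change 2.01, adjusted p = 0.000906, edgeR), and Ddit4, an inhibitor of mTORC1, which rose by 1.30 on the log2 scale (adjusted p = 0.000486). Phgdh, the first enzyme of serine synthesis, fell from 168 ± 8.87 to 52.9 ± 4.12 CPM (SD, n = 3), a log2 fold change of −1.67 (adjusted p = 5.34e-05, edgeR). Chac1, which degrades glutathione and is in both of the last lists, fell by 2.17 (adjusted p = 0.0289), with overlapping groups. Atf4, the transcription factor that reads out amino acid shortage, had −0.41 (adjusted p = 0.169, edgeR) and did not pass, nor did Eif4ebp1 with −0.38.

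**Figure D3:**
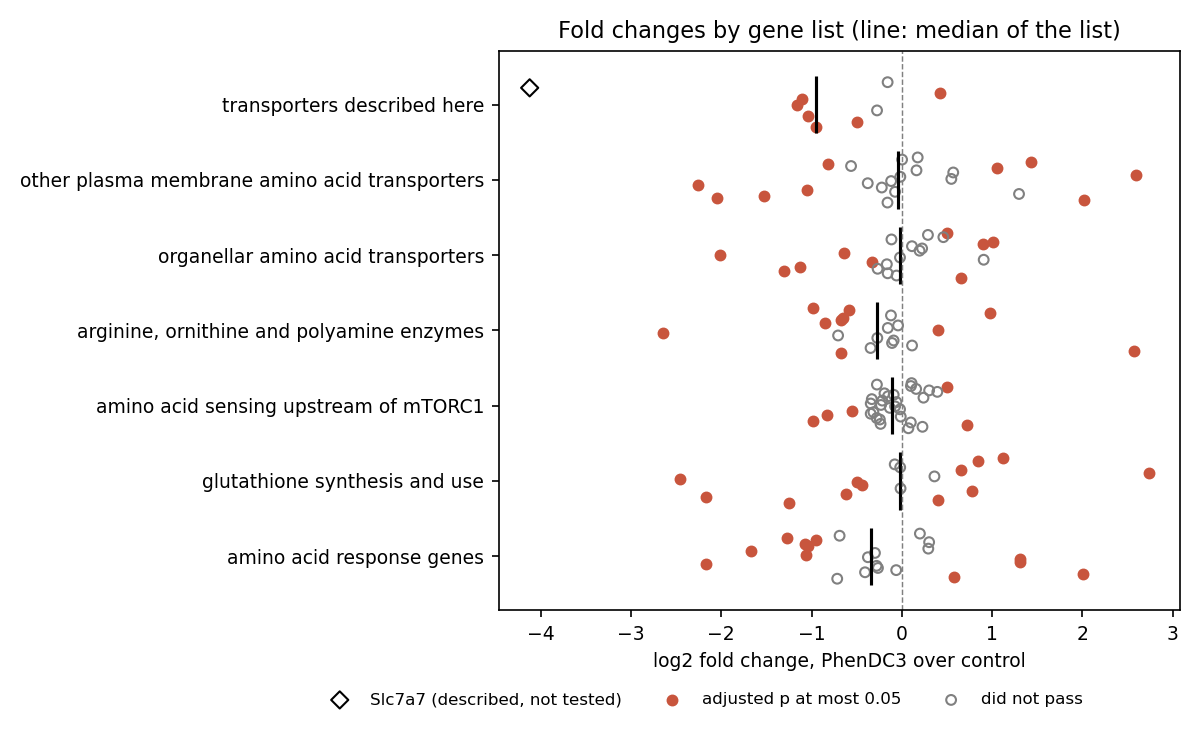
log2 fold change of PhenDC3 over control for each tested gene of the transporters described here and of 6 related lists, with filled points for an adjusted p of at most 0.05, open circles for the rest and black lines for the list medians. The line of the transporters described here is drawn at −0.955, the median with Slc7a7 (open diamond), which was picked by this contrast. Without Slc7a7 their median is −0.727, and the median of each other list lies between −0.337 and −0.016. The members and the lists were chosen with earlier results of these data known.

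SNS-seq was read at the same genes, as a measure the choice of Slc7a7 had not used. A peak marks where nascent strands were enriched over a library of the same condition treated with RNase, and the 5 lists held between 79377 and 144103 peaks, the largest being PhenDC3 replicate 1. Read counts are not part of the lists, and the depth at each peak is unknown. With 3 lists against 2, the smallest p of an exact permutation test is 0.2 (two-sided), and no test was made. Across 21000 protein-coding genes, 49.2% had a peak in each of the 5 lists within the gene or 2 kb on each side, and 17% had none in any list.

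Slc7a7 had 4, 2 and 5 peaks in control replicates 1, 2 and 3, and 7 and 4 peaks in PhenDC3 replicates 1 and 2, so that the number of peaks overlapped between the conditions. These formed 8 regions, of which 3 were common (a peak in at least 2 controls and both PhenDC3 lists), none was suppressed (at least 2 controls and no PhenDC3 list) and none was new (both PhenDC3 lists and no control). These classes rest on the presence of peaks alone. The authors' classes named suppressed and new also used the fold change, so shares cannot be compared with theirs. Peaks in all 5 lists were present at 2 of the 8 regions, and no G4 motif lay within 500 bases of the centre of either region. The first, in an intron at chr14:54406657-54407006, had fold enrichments of 3.70, 3.96 and 8.08 in controls and 5.09 and 12.4 with PhenDC3. The second, at chr14:54408551-54408939, overlaps a coding exon 727 bases after the start at position 54409472, with fold enrichments of 5.42, 2.29 and 3.05 in controls and 6.48 and 4.83 with PhenDC3. The values of the conditions overlapped at both. No list had a peak within 2 kb of the 3 upstream starts, where the G4 motif printed above lies. The stretches shared by the peaks of all 5 lists are shown in lower case throughout, on the plus strand (chr14:54406852-54406964 and chr14:54408768-54408881).

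Slc7a7 peak in the intron: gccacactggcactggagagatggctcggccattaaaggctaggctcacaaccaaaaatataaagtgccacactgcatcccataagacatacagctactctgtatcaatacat
Slc7a7 peak in the coding exon: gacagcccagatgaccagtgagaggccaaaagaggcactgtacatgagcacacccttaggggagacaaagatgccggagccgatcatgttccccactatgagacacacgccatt

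Slc3a2 was the member whose peak numbers were lower in both PhenDC3 lists than in every control. It had 7, 7 and 5 peaks in controls and 1 and 2 with PhenDC3, an order found for 3.32% of the 21000 genes. The 21000 include the 17% with no peak in any list, which can show neither this order nor the reverse. Of the 12 regions of Slc3a2, 3 were suppressed and none was common. One, in an intron of the longer transcript at chr19:8715229-8715417, was found in all 3 controls, at 3.35-, 5.73- and 3.92-fold enrichment, and in neither PhenDC3 list. No G4 motif lay within 500 bases of its centre, and the stretch shared by the 3 control peaks (chr19:8715253-8715382, plus strand) is printed for comparison with those of Slc7a7.

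Slc3a2 control peak: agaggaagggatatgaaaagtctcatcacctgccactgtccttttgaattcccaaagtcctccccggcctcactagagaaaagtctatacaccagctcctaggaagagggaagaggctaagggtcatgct

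**Figure D4:**
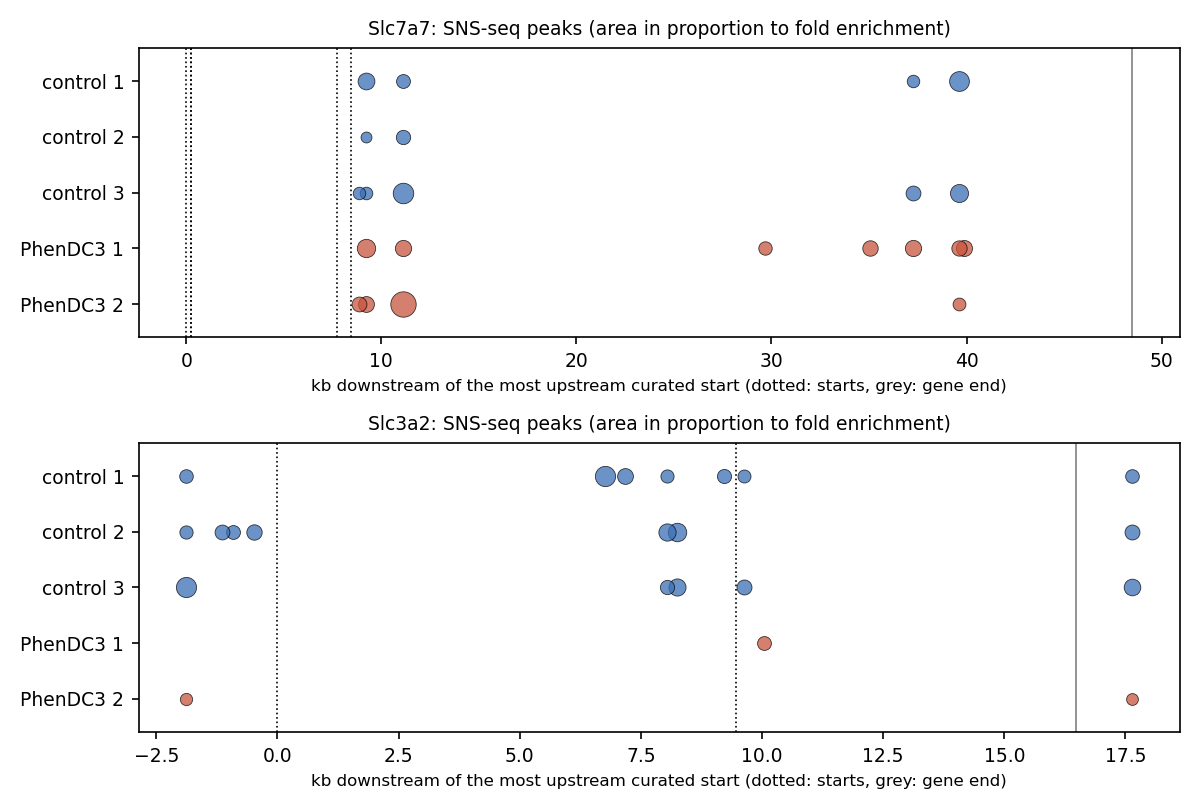
SNS-seq peaks along Slc7a7 and Slc3a2 in the 5 lists, by distance in kilobases downstream of the most upstream curated start; the area of a point is in proportion to its fold enrichment. Of the 8 places with a peak along Slc7a7, 5 have one in both conditions and 3 in PhenDC3 replicate 1 alone, with none at the upstream starts, and Slc3a2 has 1 and 2 peaks in the PhenDC3 lists against 5 to 7 in controls.

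No other member had this order, and no member had more peaks in both PhenDC3 lists than in every control, an order found for 8.65% of the 21000 genes. Slc7a5 had 7, 6 and 4 peaks in controls and 13 and 2 with PhenDC3, the widest gap between the PhenDC3 lists, and 2 of its 16 regions were in all 5 lists, one of them 380 bases after its start. Slc7a1 had 9, 8 and 9 peaks in controls and 12 and 7 with PhenDC3, and Slc1a5 had 10, 5 and 5 against 5 and 5. Slc7a3 had no peak in any list. Slc7a6, Slc7a8, Slc7a11 and Slc38a2 had between 0 and 4 peaks in a list. Over all 10 genes the peaks formed 94 regions, of which 11 were common, 11 suppressed, 3 new and 69 of other patterns, and 44 had a G4 motif within 500 bases of the centre. As shares, 11.7% were common, 11.7% suppressed and 3.19% new, and 46.8% had the motif. Over all 246934 regions of the 5 lists merged in the same way, 13.5% were common, 7.59% suppressed and 7.53% new, and 55.6% had the motif. These class counts moved when a list was left out, but the class rules changed as well. With a PhenDC3 list left out, only the remaining one decided whether PhenDC3 had a peak. With a control left out, common and suppressed needed a peak in both remaining controls. Without PhenDC3 replicate 2, 24 regions were new and 17 suppressed (26.1% and 18.5%, against 30.9% and 13.1% of all regions). Without control replicate 2, 3 were suppressed (3.37%, against 3.17% of all regions). Without control replicate 1, 5 were suppressed (6.1%, against 3.37%), and without control replicate 3, 7 were (7.95%, against 4.9%). Without PhenDC3 replicate 1, 16 were suppressed (21.9%, against 14.5%).

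**Figure D5:**
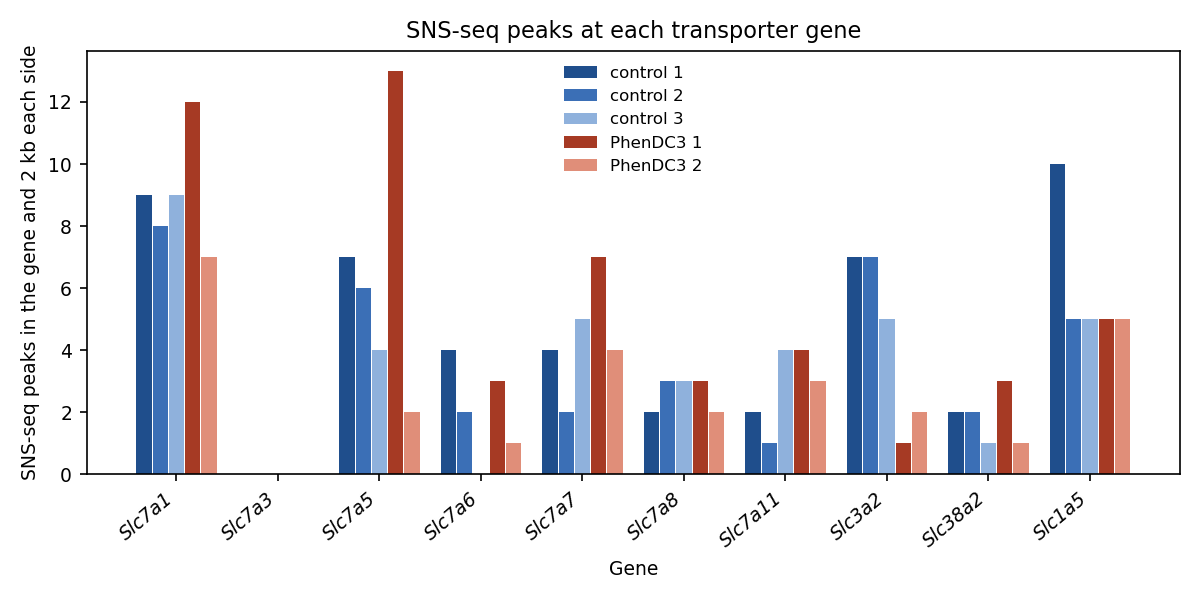
Number of SNS-seq peaks within each transporter gene and 2 kb on each side, in 3 control lists (blue) and 2 PhenDC3 lists (red). Slc3a2 is the gene where both red bars, at 1 and 2, are lower than all 3 blue bars.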

How the data were processed

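The members and the related gene lists were chosen with earlier results of these data known. The authors aligned RNA-seq reads with TopHat2 2.1.1 and Bowtie2 2.2.9 and counted them with HTSeq 0.6.1p1, and the deposited counts are raw; annotation and strand setting were not given in the sources used here. A deposited table of normalized pseudo-counts and a DESeq2 table of fold changes and p-values were not used. Counts were tested with edgeR 4.0.16 (quasi-likelihood, robust, relative log expression factors, filterByExpr, Benjamini-Hochberg over 13972 genes), and checked on simulated data. CPM and RPKM are normalized counts, the latter per exon length of curated RefSeq transcripts (GRCm38.p6, the mm10 build). For SNS-seq, the authors called peaks with MACS2 2.1.0 on Bowtie2 2.2.5 alignments and kept those overlapping SICER regions. The deposited lists give a fold enrichment ratio and −log10 p of each peak, the latter used only for an alternative. Genes named from lists were the 4 largest changes that passed with a mean CPM of at least 1, and the 2 most abundant that did not. Alternatives were TMM, DESeq2 1.42.0, no filter, a replicate block, each library left out, other peak windows, stronger peaks and, chosen after seeing the data, no Rn45s and Lars2.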

Additional observations from a re-analysis of the deposited data

How the results depend on the processing

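Of the 9 tested or described members, Slc7a3, Slc7a5, Slc3a2 and Slc1a5 kept their direction and passed under all 11 RNA-seq alternatives, and Slc7a7 kept a log2 fold change between −4.45 and −3.91. Slc7a6 and Slc38a2 each lost the call without any of 4 libraries, as given with their values, and Slc7a8, which did not pass in any, ranged from −0.40 to 0.016 with each library left out, the positive value without control replicate 1. With each library left out, between 3332 and 5416 genes passed, the lowest without PhenDC3 replicate 1, and the number that passed was 5 to 8 for organellar transporters, 7 to 12 for glutathione genes (5 and 7 without PhenDC3 replicate 1) and 4 to 10 for the sensing genes. With the replicate number as a block, 7489 of all genes (53.6%) and 14 of the 32 sensing genes passed, and Slc7a1 passed at −0.29 (adjusted p = 0.0173). The same-numbered samples deviated together with correlations of 0.0976, 0.593 and 0.453, each the best of its sample, but the labels do not say that a number marks a shared culture, and the block was not used. Peaks within 2 kb of a start gave 3 common, 0 new and 8 suppressed regions, and the stronger peaks gave 2 common, 1 new and 2 suppressed. Shares over all regions were not computed for these alternatives, so these counts cannot be set against a background. With each list left out, and the class rules changed with it as given above, common regions ranged from 9 to 17, new from 3 to 24 and suppressed from 3 to 17. In each case the cause was not tested. The low counts of Slc7a8 and Slc7a11 and the lack of read counts in the peak lists limit what could be seen there.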
